A study of Mus musculus with 16 samples.

Results

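The core autophagy genes described here were 35 genes listed by name, covering the kinase complex that starts autophagosome formation, the ATG9 and lipid transfer proteins, the ATG8 and ATG12 conjugation enzymes, the ATG8 proteins, the cargo receptors and the fusion step. Of these, 33 were measured among the 19505 genes tested, each by a single transcript cluster (the set of array probes that together report 1 gene). Vmp1 and Optn were not analysed here. The genes were listed by name, without a cutoff on their measured values. Earlier results of these data were known when the list was made.

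Sciatic nerves of mice were profiled on 16 Clariom S arrays, 4 in each of 4 groups. The cKO groups, P10 (10 days old) and 2 months old, were Becn1 cKO animals, which in the study's methods carry Becn1 fl/fl and a Cre transgene. The 2 age-matched control groups are called Becn1 wild-type in the labels, while the methods describe Becn1 fl/fl or fl/+ littermates that lack the Cre, so the controls may carry the floxed allele too. The Cre is active in cells of the Schwann lineage from embryonic stages, and the whole nerve also holds fibroblasts, endothelial cells, macrophages and other cells in which it is not active. Which sex each array came from is not stated in the labels. Nothing in the labels says that the arrays of a group came from separate animals, so p-values measure the spread between these arrays, which may be technical.

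Macroautophagy encloses cytoplasm in a double membrane, the autophagosome, and delivers it to the lysosome. The ULK1 complex starts the process, Beclin 1 and its lipid kinase partner VPS34 mark the site with the lipid PI3P, and ATG2 and ATG9 supply lipid while 2 ubiquitin-like conjugation systems attach the ATG8 proteins (the LC3 and GABARAP families) to the growing membrane. Receptors such as p62, the product of Sqstm1, tie cargo to the ATG8 proteins and are degraded along with it. In Schwann cells autophagy is known for its part in clearing myelin after nerve injury.

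Array values were log2 signals. Within a group the arrays correlated at 0.976 to 0.994 over all transcript clusters, and between groups at 0.933 to 0.978. Markers of other tissue and cell types moved with the groups. The mean of 14 skeletal muscle genes spread from 6.84 to 11.63 among P10 control arrays, with replicate 4 highest, and from 6.14 to 9.15 among P10 cKO arrays. The mean of 6 measured myelinating Schwann cell genes was 11.64 to 11.95 in P10 control and 10.08 to 10.25 in P10 cKO nerves, and 11.15 to 11.52 in control and 8.95 to 9.43 in cKO nerves at 2 months. The mean of 13 measured macrophage genes was 6.97 to 7.27 in control and 7.29 to 7.62 in cKO nerves at P10, and 7.44 to 7.91 in control and 9.05 to 9.26 in cKO nerves at 2 months.

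Becn1 itself, the targeted gene, was measured first. At P10 it was 8.62, 8.57, 8.52 and 8.72 in control replicates 1 to 4, and 8.21, 8.12, 8.30 and 8.39 in cKO replicates 1 to 4. At 2 months it was 8.53, 8.44, 8.46 and 8.36 in control nerves and 8.24, 8.23, 8.18 and 8.10 in cKO nerves. The groups did not overlap at either age, with cKO nerves lower by 0.35 ± 0.10 on the log2 scale at P10 (SE, n = 4 per group, adjusted p = 0.0397 by limma) and by 0.26 ± 0.09 at 2 months (adjusted p = 0.0312). Where the probes of the Becn1 cluster lie relative to the floxed exons is not given in the sources used here, so this value does not measure recombination, and in bulk nerve fewer cells of a type and less RNA per cell cannot be told apart. The call at P10 was lost when any array except cKO replicate 4 was left out (adjusted p of 0.057 to 0.131), and also with arrays centred on their median (0.0563), after quantile normalization (0.0646) and without the intensity trend (0.0607). At 2 months it was lost without control replicate 1, 2 or 3 or cKO replicate 3 or 4 (adjusted p of 0.056 to 0.102).

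Across the core genes, differences between cKO and control nerves were few at P10 and common at 2 months. At P10, 3 of the 33 genes were higher in cKO nerves (Sqstm1, Atg4a and Gabarapl1) and 2 were lower (Map1lc3a and Ulk2), which is 15.2% against 12.9% of all genes tested. The higher calls were 9.09% of the core genes and 5.48% of all genes, and the lower calls 6.06% and 7.44%. At 2 months 13 were higher and 3 lower, 48.5% against 34% of all genes tested. The higher calls made up 39.4% of the core genes and 18.5% of all genes, and the lower calls 9.09% and 15.5%. The median log2 change of the core genes was -0.03 at P10 (0.0024 over all genes) and 0.18 at 2 months (-0.02 over all genes). Sqstm1 and Atg4a were higher at both ages and Map1lc3a lower at both, 11 genes were called higher and 2 lower at 2 months without a call at P10, and 15 were called at neither age. The share of all genes with each of these joint patterns was not counted, and calls over all genes were also more common at 2 months. A call at a single age does not show that a difference changed with age. Of the genes called at 2 months and not at P10, only Atg5, Atg7 and Atg12 had a called change of the effect with age. The 4 arrays of cKO lay wholly above those of control for 5 core genes at P10 (7.73% of all genes did so) and for 13 at 2 months (17.8%), and wholly below for 2 at P10 (9.14%) and 3 at 2 months (15.5%).

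**Figure D1:**
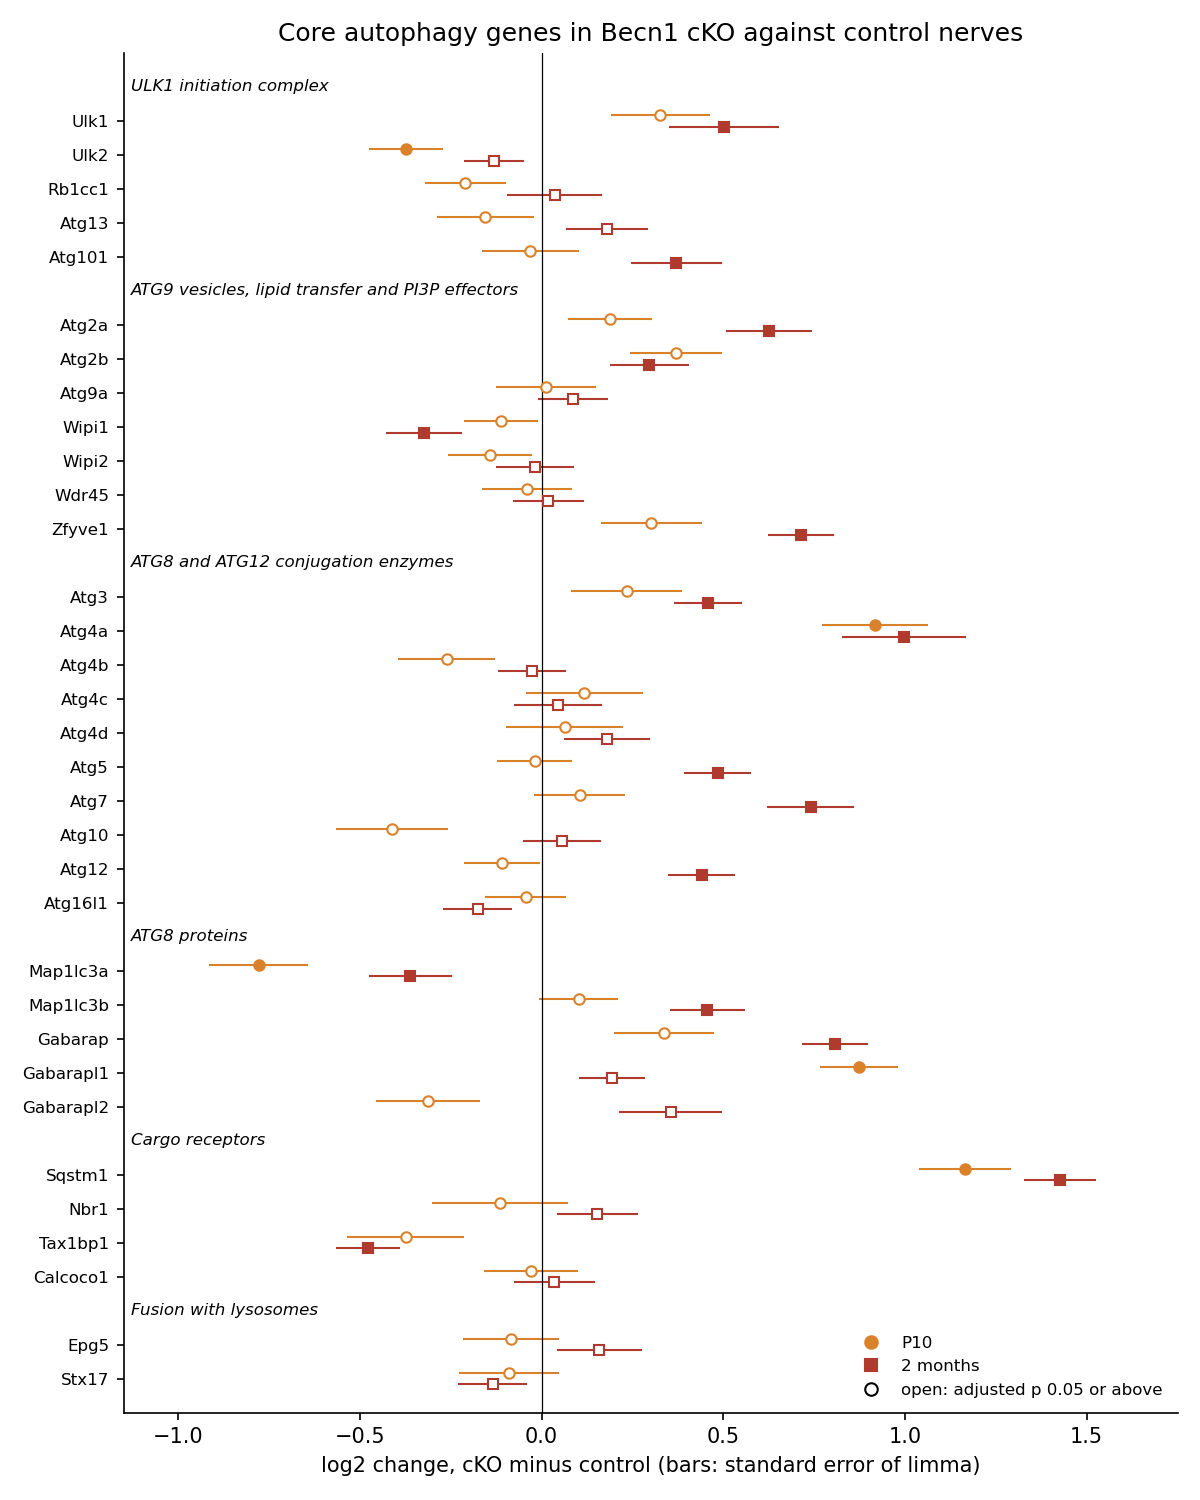
Log2 difference between cKO and control nerves for each of the 33 measured core autophagy genes, grouped by role, at P10 (orange circles) and 2 months (red squares). Filled symbols are called at an adjusted p under 0.05 and bars are the standard error from limma; 13 red squares are filled to the right of 0 and 3 to the left, against 3 and 2 orange circles.

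Among the cargo receptors, Sqstm1 had the largest difference of any core gene at both ages. The gene encodes p62, which binds ubiquitinated cargo and LC3. At P10 its log2 value was 9.73, 9.96, 9.92 and 9.69 in control replicates 1 to 4 and 10.72, 10.88, 11.09 and 11.27 in cKO replicates 1 to 4. At 2 months it was 9.83, 10.02, 9.69 and 9.55 in control nerves and 11.23, 11.23, 11.14 and 11.20 in cKO nerves. Every cKO array lay above every control array, by 1.17 ± 0.13 log2 units on average at P10 (adjusted p = 1.81e-05) and 1.43 ± 0.10 at 2 months (adjusted p = 5.2e-08). The change of this difference between ages, 0.26 ± 0.16, did not pass the test (adjusted p = 0.344). Leaving out P10 control replicate 4, the array with the highest muscle markers, the P10 call of Sqstm1 and those of the 4 other core genes stayed.

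The other receptors did not follow Sqstm1. Tax1bp1, which also binds ubiquitin, was lower in cKO nerves at 2 months by 0.48 ± 0.09 (adjusted p = 0.000606), with control arrays at 10.16 to 10.39 and cKO arrays at 9.73 to 9.90. At P10 its difference was -0.37 ± 0.16 (adjusted p = 0.171), and cKO replicate 3 lay at 8.85 while the other cKO arrays lay near 9.53. Nbr1, a receptor related to p62 in its domains, differed by -0.11 ± 0.19 at P10 and 0.15 ± 0.11 at 2 months. Calcoco1, a receptor for the endoplasmic reticulum and the Golgi, differed by -0.03 ± 0.13 and 0.04 ± 0.11. Neither passed the test at either age.

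The ATG8 genes split by member and by age. Gabarapl1 was higher in cKO nerves at P10, with 9.04, 8.94, 8.88 and 8.84 in control replicates 1 to 4 and 9.65, 9.80, 10.01 and 9.74 in cKO replicates 1 to 4, a difference of 0.87 ± 0.11 (adjusted p = 5.67e-05). At 2 months the control arrays stood at 9.62, 9.46, 9.72 and 9.45 and the cKO arrays at 9.80, 9.65, 9.77 and 9.81, so that the groups overlapped and the difference was 0.19 ± 0.09 (adjusted p = 0.116). Between the 2 ages the control nerves rose by 0.64 ± 0.10, to near the cKO level, and the change in cKO nerves was -0.04 ± 0.10. The difference between the 2 effects was itself called (-0.68 ± 0.13, adjusted p = 0.00194), and this call remained when each array in turn was left out.

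Gabarap showed the opposite order in time. At P10 the control arrays (10.13, 10.10, 9.88 and 9.64) and the cKO arrays (10.09, 10.10, 10.58 and 10.32) overlapped, and the difference of 0.34 ± 0.14 did not pass the test (adjusted p = 0.143). At 2 months control arrays were at 9.87, 9.82, 9.56 and 9.66 and cKO arrays at 10.46, 10.61, 10.56 and 10.50, a difference of 0.81 ± 0.09 (adjusted p = 5.36e-06). The groups were apart at 2 months, but the change of the effect with age, 0.47 ± 0.17, did not pass (adjusted p = 0.0752), though it did without P10 control replicate 4 (0.0213) or P10 cKO replicate 3 (0.0207). Map1lc3b, which encodes LC3B, the ATG8 protein most used as an autophagosome marker, followed with 9.54 to 10.05 in control and 10.22 to 10.37 in cKO nerves at 2 months (0.46 ± 0.10, adjusted p = 0.00302) and a difference of 0.10 ± 0.11 at P10 (adjusted p = 0.652).

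Map1lc3a, which encodes LC3A, was the ATG8 gene that was lower in cKO nerves. At P10 its log2 value was 8.26, 8.47, 8.47 and 8.37 in control replicates 1 to 4 and 7.34, 7.44, 7.75 and 7.94 in cKO replicates 1 to 4, a difference of -0.78 ± 0.14 (adjusted p = 0.0012). At 2 months it was 8.30, 8.07, 8.05 and 7.83 in control nerves and 7.88, 7.57, 7.72 and 7.64 in cKO nerves, where 1 cKO array reached above the lowest control array and the difference was -0.36 ± 0.11 (adjusted p = 0.0228). The 2-month call was lost without control replicate 1, cKO replicate 2 or cKO replicate 4 (adjusted p of 0.0578 to 0.0712).

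Gabarapl2 was the ATG8 gene whose difference changed sign with age. At P10 control arrays were at 7.46, 7.36, 7.38 and 7.52 and cKO arrays at 6.86, 6.88, 7.41 and 7.31 (-0.31 ± 0.14, adjusted p = 0.199). At 2 months control arrays were at 8.01, 7.98, 7.74 and 7.40 and cKO arrays at 7.91, 8.01, 8.34 and 8.28 (0.36 ± 0.14, adjusted p = 0.0673, or 0.0286 without control replicate 1 and 0.0433 without cKO replicate 1). Neither difference passed alone and the groups overlapped at both ages, while the change of the effect, 0.67 ± 0.21, passed with an adjusted p of 0.0409. That call rested on individual arrays: it was lost without any of the 4 P10 control arrays, without P10 cKO replicate 1 or 2, and without replicate 3 or 4 of either 2-month group (adjusted p of 0.0506 to 0.098). It was also lost with arrays centred on their median (0.0542), after quantile normalization (0.0588) and without the intensity trend (0.0512). Cross-hybridisation between ATG8 genes, which are similar in sequence, was not tested.

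**Figure D2:**
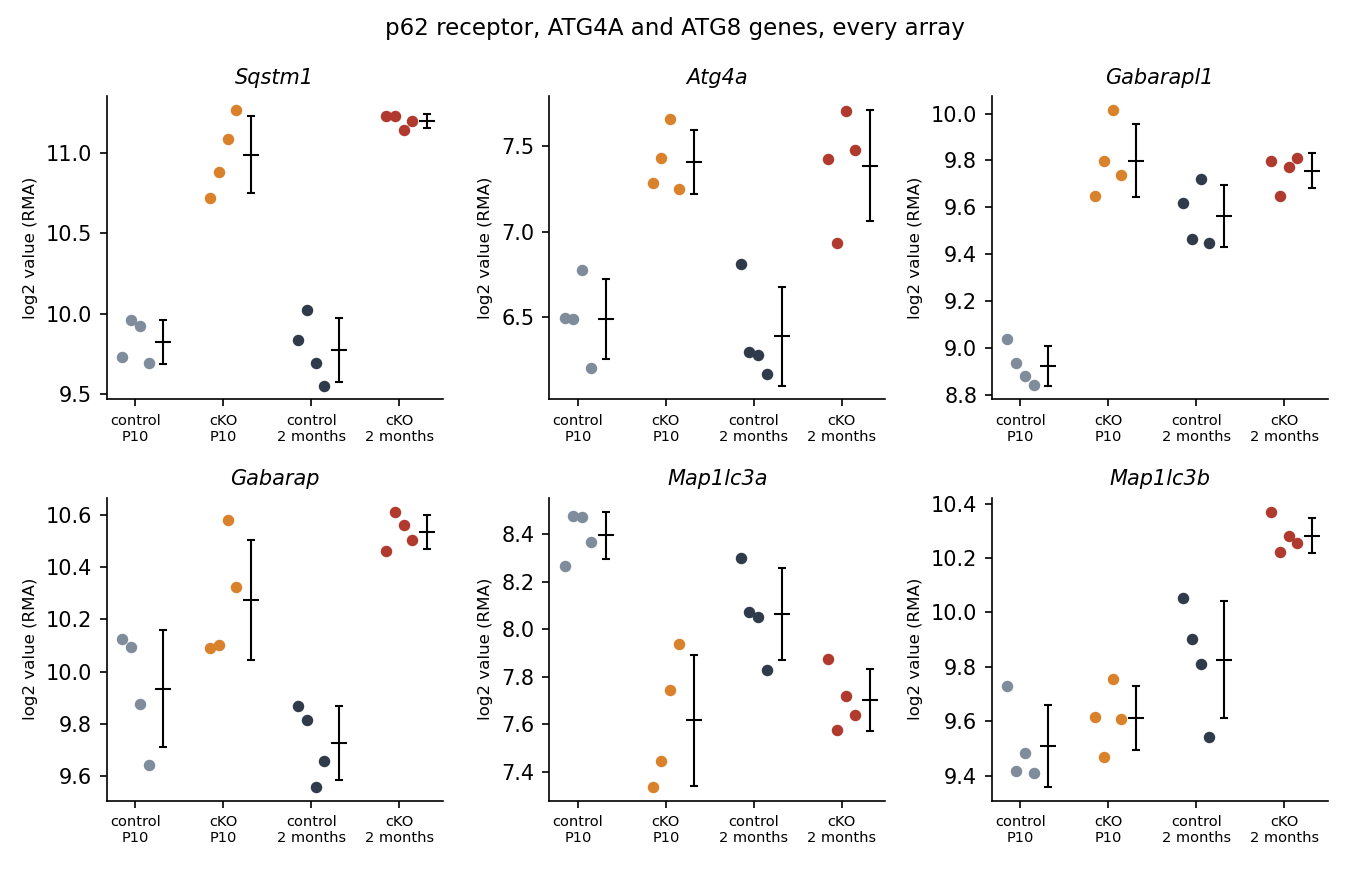
Log2 value (RMA) of Sqstm1, Atg4a, Gabarapl1, Gabarap, Map1lc3a and Map1lc3b on every array, 4 per group, with replicates 1 to 4 from left to right; the bar beside each group is its mean ± SD. The cKO arrays of Sqstm1 lie between 10.72 and 11.27 at both ages and all control arrays between 9.55 and 10.02, while the control arrays of Gabarapl1 move up between P10 and 2 months.

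The conjugation enzymes were higher in cKO nerves for 5 of 10 genes at 2 months and lower for none (50% higher, against 18.5% of all genes), and 1 was higher at P10 (10% against 5.48%). Atg4a encodes a protease that trims ATG8 proteins before conjugation and frees them from membranes afterwards. It was 6.49, 6.49, 6.78 and 6.20 in P10 control replicates 1 to 4 and 7.28, 7.43, 7.66 and 7.25 in the cKO replicates, and at 2 months 6.81, 6.29, 6.28 and 6.17 against 7.42, 6.93, 7.71 and 7.48. The groups did not overlap at either age, and the differences were 0.92 ± 0.15 (adjusted p = 0.000548) and 1.00 ± 0.17 (adjusted p = 0.000304). The other ATG4 proteases stayed within -0.26 to 0.18 at both ages, with no call for Atg4b, Atg4c or Atg4d.

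Atg7, Atg5, Atg12 and Atg3 were called higher at 2 months and not at P10. Atg7 is the E1 enzyme that activates both ATG12 and the ATG8 proteins, Atg12 is the ubiquitin-like protein that is joined to Atg5, and Atg3 is the E2 enzyme that passes ATG8 proteins to lipid. At 2 months Atg7 was 7.66, 7.28, 7.42 and 7.08 in control replicates 1 to 4 and 8.16, 8.16, 8.06 and 8.02 in cKO replicates 1 to 4 (0.74 ± 0.12, adjusted p = 0.00019). At P10 the arrays of the 2 groups were mixed, at 7.88, 7.74, 7.58 and 7.48 against 7.67, 7.62, 7.95 and 7.85 (0.10 ± 0.13, adjusted p = 0.694).

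Atg5 was similar. At 2 months it was 8.11, 8.35, 8.12 and 8.05 in control and 8.62, 8.68, 8.66 and 8.61 in cKO nerves (0.48 ± 0.09, adjusted p = 0.000779). At P10 it was 8.01, 8.15, 8.05 and 7.98 in control and 8.11, 7.89, 8.09 and 8.03 in cKO nerves, a difference of -0.02 ± 0.10. The 2-month cKO arrays were thus above all 12 other arrays. The same held for Atg12, which at 2 months was 8.60, 8.52, 8.38 and 8.53 in control and 8.86, 8.85, 9.07 and 9.01 in cKO nerves (0.44 ± 0.09, adjusted p = 0.00154). At P10 Atg12 was 8.13, 8.29, 8.20 and 8.27 in control and 7.98, 8.22, 8.07 and 8.19 in cKO nerves (-0.11 ± 0.11).

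The effect on all 3 genes changed with age when the change itself was tested. It was 0.55 ± 0.13 for Atg12 (adjusted p = 0.00797), 0.50 ± 0.13 for Atg5 (adjusted p = 0.013) and 0.64 ± 0.17 for Atg7 (adjusted p = 0.0203), the last lost without P10 cKO replicate 2 (adjusted p = 0.0504). With Gabarapl1 and Gabarapl2 these were the 5 core genes with a called interaction, 15.2% against 12.3% of all genes tested, with 4 effects that moved up at 2 months (7.69% of all genes did) and 1 that moved down (4.59%). Atg3 was 7.82 to 7.97 in control and 8.27 to 8.48 in cKO nerves at 2 months (0.46 ± 0.09, adjusted p = 0.00139). At P10, 3 cKO arrays of Atg3 lay above all control arrays but cKO replicate 4, at 7.61, lay below them all, and the difference of 0.23 ± 0.15 did not pass. The change of the Atg3 effect with age, 0.22 ± 0.18, did not pass either (adjusted p = 0.497). Atg10, the E2 enzyme for ATG12, and Atg16l1, which brings the ATG12-ATG5 conjugate to membranes, were not called at either age, although the P10 difference of Atg10, -0.41 ± 0.15 (adjusted p = 0.104), passed without cKO replicate 1 (0.0403) and with all 16 arrays in a single fit (0.0349).

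**Figure D3:**
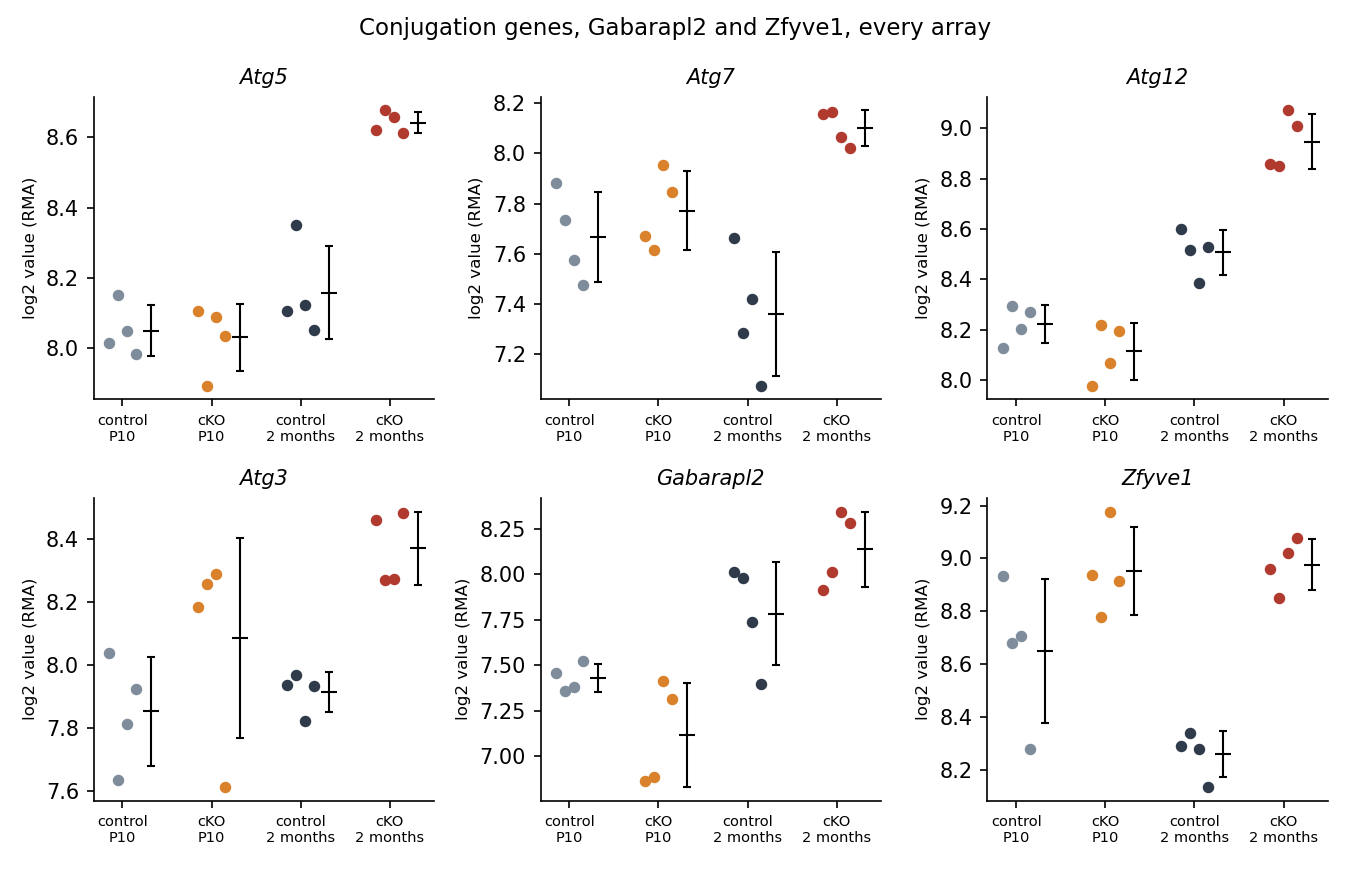
Log2 value (RMA) of Atg5, Atg7, Atg12, Atg3, Gabarapl2 and Zfyve1 on every array, 4 per group, with replicates 1 to 4 from left to right; the bar beside each group is its mean ± SD. For Atg5 and Atg12 the 4 cKO arrays at 2 months lie above the other 12 arrays, whereas the 2 P10 groups overlap.

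Promoter sequences are shown for the 3 conjugation genes that share the CACGTG motif, the core of the CLEAR element bound by TFEB and of other E-boxes, and for Sqstm1, the gene with the largest difference, which lacks it. Each window is from RefSeq (GRCm38.p6), runs from 250 bases before the annotated start to 50 bases after it, 5′ to 3′ on the gene's strand, and has CACGTG in capitals. The windows are Atg3 at chr16:45158579-45158878 (plus strand), Atg5 at chr10:44268089-44268388 (plus), Atg7 at chr6:114670846-114671145 (plus) and Sqstm1 at chr11:50210771-50211070 (minus).
Atg3: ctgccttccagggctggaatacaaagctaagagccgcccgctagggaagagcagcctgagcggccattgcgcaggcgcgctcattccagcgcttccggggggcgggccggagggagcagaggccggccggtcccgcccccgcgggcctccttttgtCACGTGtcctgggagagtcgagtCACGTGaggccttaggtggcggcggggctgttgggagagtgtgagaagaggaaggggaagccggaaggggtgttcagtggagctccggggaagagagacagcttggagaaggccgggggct
Atg5: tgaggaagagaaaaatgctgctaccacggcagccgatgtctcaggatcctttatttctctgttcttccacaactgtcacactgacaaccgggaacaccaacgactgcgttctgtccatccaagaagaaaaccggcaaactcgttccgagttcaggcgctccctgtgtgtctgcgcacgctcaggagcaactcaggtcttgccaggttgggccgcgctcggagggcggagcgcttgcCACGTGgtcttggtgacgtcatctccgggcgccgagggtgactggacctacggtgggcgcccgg
Atg7: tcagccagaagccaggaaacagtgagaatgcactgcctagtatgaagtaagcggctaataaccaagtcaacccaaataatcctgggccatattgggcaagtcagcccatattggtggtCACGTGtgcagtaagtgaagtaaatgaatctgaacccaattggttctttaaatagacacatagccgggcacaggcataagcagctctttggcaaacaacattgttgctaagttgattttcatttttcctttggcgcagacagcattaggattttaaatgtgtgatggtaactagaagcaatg
Sqstm1: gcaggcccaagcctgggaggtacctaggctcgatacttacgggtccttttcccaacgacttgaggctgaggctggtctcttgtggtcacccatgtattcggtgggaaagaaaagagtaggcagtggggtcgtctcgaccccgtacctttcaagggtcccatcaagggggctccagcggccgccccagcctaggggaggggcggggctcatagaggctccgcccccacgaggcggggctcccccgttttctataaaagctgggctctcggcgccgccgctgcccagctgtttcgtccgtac

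Of the 35 core genes, 30 had a promoter in the RefSeq table, 37 windows in all. CACGTG, which reads the same on both strands, was found in 3 of the 37 windows (8.11%), those of Atg3, Atg5 and Atg7, and in 8.11% of the windows of all genes tested. All 3 genes were called higher in cKO nerves at 2 months. The other 10 called higher then either had no such match in their windows or, for Atg12, had no window in the table. Of all measured core genes, 39.4% were called higher at that age, and a link between motif and call was not tested. The longer TCACGTG, which contains CACGTG, was found on either strand in 2 windows, those of Atg3 and Atg7 (5.41% against 4.57% of the windows of genes tested). TGACNNNGC, the core of the antioxidant response element, was found on either strand in 8 windows (21.6% against 13.1%), of Atg13, Map1lc3b, Tax1bp1, Ulk2, Zfyve1 and the unmeasured Vmp1. Several of these windows belonged to Vmp1 alone. Counted by gene, the motif was found for 6 of 30 core genes and 2354 of 15691 genes tested. The Sqstm1 window held none of the 3 motifs. A match describes letters in this window only.

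Among the ATG9, lipid transfer and PI3P effector genes, none of 7 was called at P10, where 12.9% of all genes were, and at 2 months 3 were higher and 1 lower (42.9% and 14.3%, against 18.5% and 15.5% of all genes). Zfyve1 encodes DFCP1, which marks the PI3P-rich sites where autophagosomes start. It was 8.29, 8.34, 8.28 and 8.14 in control replicates 1 to 4 and 8.96, 8.85, 9.02 and 9.08 in cKO replicates 1 to 4 at 2 months, a difference of 0.71 ± 0.09 (adjusted p = 1.88e-05). At P10 the control arrays spread widely (8.93, 8.68, 8.71 and 8.28) and overlapped with the cKO arrays (8.94, 8.78, 9.18 and 8.91), with a difference of 0.30 ± 0.14 (adjusted p = 0.203). The control array at 8.28 was replicate 4, which had the highest muscle markers. The change of the Zfyve1 effect with age, 0.41 ± 0.17, did not pass (adjusted p = 0.118), though it did without that array (0.0187). The part of the muscle markers in the result was not tested.

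Atg2a and Atg2b encode the proteins that carry lipid into the growing membrane. Atg2a was 6.34, 6.60, 6.38 and 6.65 in control and 7.24, 7.02, 7.01 and 7.20 in cKO nerves at 2 months, with no overlap (0.63 ± 0.12, adjusted p = 0.00071). At P10 it was 6.76, 6.76, 6.67 and 6.78 against 6.88, 6.86, 7.10 and 6.87, which did not overlap either but differed by only 0.19 ± 0.12 (adjusted p = 0.375). Atg2b was higher by 0.30 ± 0.11 at 2 months (adjusted p = 0.0458) and by 0.37 ± 0.13 at P10 without a call (adjusted p = 0.076). Its 2-month call was lost without control replicate 2, 3 or 4 or cKO replicate 2, 3 or 4 (adjusted p of 0.0767 to 0.162) and after quantile normalization (0.0691). With all 16 arrays in a single fit Atg2b was called at P10 (0.0292) and not at 2 months (0.0507).

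Wipi1, which binds PI3P on early autophagosomes, was lower in cKO nerves at 2 months by 0.32 ± 0.10 (adjusted p = 0.0257), with control replicates 1 to 4 at 8.59, 8.25, 8.39 and 8.39 and cKO replicates 1 to 4 at 7.91, 8.02, 8.18 and 8.21. The groups did not overlap, but the call was lost without control replicate 1 or cKO replicate 1 or 2 (adjusted p of 0.0609 to 0.0826). Its relatives Wipi2 and Wdr45, and Atg9a, the transmembrane protein of the vesicles that seed autophagosomes, differed by -0.14 to 0.09 at both ages with no call.

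In the ULK1 complex, the kinases Ulk1 and Ulk2 were called in opposite directions and at different ages. The change of the effect with age was called for neither, at 0.18 ± 0.20 for Ulk1 (adjusted p = 0.654) and 0.24 ± 0.12 for Ulk2 (adjusted p = 0.217). Ulk1 was 6.21, 5.83, 5.84 and 5.90 in control and 6.60, 6.77, 6.21 and 6.22 in cKO nerves at 2 months (0.50 ± 0.15, adjusted p = 0.0174). The highest control array and the lowest cKO array of Ulk1 lay next to each other, and the call was lost without cKO replicate 1 or 2 (adjusted p of 0.0535 to 0.0668). At P10 Ulk1 differed by 0.33 ± 0.14 (adjusted p = 0.155), a difference that passed without control replicate 4 (adjusted p = 0.0448). In that array Ulk1 stood at 6.73, beside 6.20 to 6.43 in the other P10 control arrays.

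At P10 Ulk2 was 9.07, 9.14, 9.19 and 8.99 in control and 8.60, 8.87, 8.73 and 8.70 in cKO nerves (-0.37 ± 0.10, adjusted p = 0.0255), and it differed by -0.13 ± 0.08 at 2 months (adjusted p = 0.259). Its P10 groups did not overlap, yet the call was lost without control replicate 2 or 3 or cKO replicate 1 or 4 (adjusted p of 0.0515 to 0.0889), which left 1 lower core gene without control replicate 2 or 3 or cKO replicate 4. Atg101, a partner of ATG13, was 6.43 to 6.80 in control and 6.80 to 7.18 in cKO nerves at 2 months (0.37 ± 0.13, adjusted p = 0.033), a call lost without control replicate 3 or 4 or cKO replicate 1, 3 or 4 (adjusted p of 0.0506 to 0.105). Atg13 and Rb1cc1, the scaffold also known as FIP200, were not called at either age. The fusion genes Epg5, a tether, and Stx17, the SNARE of the autophagosome, were not called either, with differences of -0.13 to 0.16.

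Alongside the 2-month calls, 11 of 13 measured macrophage genes were called higher and 1 (Cd163) lower in cKO nerves, 7 of 9 T and NK cell genes were higher, 3 of 6 B and plasma cell genes and 4 of 7 neutrophil genes were higher, and all 6 measured myelinating Schwann cell genes were lower. At P10, 1 of 13 macrophage genes was higher and all 6 myelinating Schwann cell genes were lower. Endothelial cell genes were lower for 8 of 9 at P10 and 4 of 9 at 2 months, and adipocyte genes for 6 of 7 and 5 of 7. Fibroblast genes were lower for 3 of 5 at both ages, with 1 higher at 2 months, and perineurial genes for none of 4 at P10 and 3 of 4 at 2 months. Over all genes tested, 18.5% were called higher and 15.5% lower at 2 months, and 5.48% and 7.44% at P10. The part of these shifts in cell markers in the core gene differences was not tested. The mean of the 7 measured genes of Schwann cells at any stage was 9.04 to 9.11 in cKO and 8.84 to 9.23 in control nerves at P10, and 8.72 to 8.91 in cKO and 8.71 to 8.97 in control nerves at 2 months, so that these groups overlapped. Single genes of that list moved both ways, with 2 calls in each direction at P10 and 3 in each direction at 2 months.

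Several core genes also changed between P10 and 2 months in nerves of the same genotype. In control nerves 8 were higher and 5 lower at 2 months (39.4% against 29% of all genes tested, of which 13.8% were higher and 15.2% lower), and in cKO nerves 10 were higher and 2 lower (36.4% against 29.9%, of which 16.1% were higher and 13.8% lower). The arrays of the 2 ages did not overlap for 6 core genes that were higher and 5 that were lower in control nerves (12.5% and 13.4% of all genes), and for 10 and 2 in cKO nerves (16.2% and 15.6%). Rb1cc1, Atg10, Atg12, Map1lc3b, Tax1bp1 and Wdr45 were called higher at 2 months in both genotypes, and Wipi1 and Atg9a lower in both. Skeletal muscle markers fell with age too, 11 of 14 genes in control and 6 of 14 in cKO nerves, and their part in these age differences was not tested.

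Wipi1 had the largest fall. It was 9.19, 9.16, 9.0 and 9.23 in P10 control replicates 1 to 4, and 9.05, 8.92, 9.03 and 9.14 in P10 cKO replicates 1 to 4, so every array at P10 was above the 2-month arrays given for it above. The log2 change with age was -0.74 ± 0.10 in control (adjusted p = 6.58e-06) and -0.95 ± 0.10 in cKO nerves (adjusted p = 1.93e-07). Atg9a was 8.58, 8.96, 8.87 and 9.31 in P10 control and 8.21, 8.12, 8.30 and 8.26 in 2-month control nerves (-0.71 ± 0.12, adjusted p = 0.000114). In cKO nerves Atg9a was 8.99, 8.95, 8.80 and 9.04 at P10 and 8.11, 8.32, 8.42 and 8.38 at 2 months (-0.64 ± 0.12), and P10 and 2-month arrays did not overlap in either genotype.

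Rb1cc1 rose with age. It was 7.62, 7.32, 7.46 and 7.52 in P10 control and 7.97, 8.41, 7.92 and 7.98 in 2-month control nerves (0.59 ± 0.12, adjusted p = 0.00077). In cKO nerves Rb1cc1 was 7.33, 7.24, 7.29 and 7.21 at P10 and 7.99, 7.88, 8.35 and 8.21 at 2 months (0.84 ± 0.12, adjusted p = 1.64e-05). The P10 and 2-month arrays did not overlap. The rise of Gabarapl1 in control nerves had an adjusted p of 2.46e-05. Gabarapl2 rose by 1.02 ± 0.15 in cKO nerves (adjusted p = 1.64e-05), and in control nerves its change of 0.35 ± 0.15 did not pass (adjusted p = 0.0817, or 0.0169 without 2-month control replicate 4).

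Atg5 rose with age in cKO nerves by 0.61 ± 0.09 (adjusted p = 2.14e-05) and had a change of 0.11 ± 0.09 in control nerves. Atg12 rose in both, by 0.83 ± 0.09 in cKO and 0.28 ± 0.09 in control nerves. Ulk1, Atg13 and Zfyve1 were called lower with age in control nerves (-0.47, -0.34 and -0.39) and had changes of -0.29, 0.00 and 0.02 in cKO nerves without a call. The smaller age calls in control nerves depended on single arrays. The 8 higher calls became 5 without P10 control replicate 3, 2-month control replicate 1 or 2-month control replicate 2, with Map1lc3b, Wdr45 and Atg12 lost in all 3 settings (adjusted p of 0.05 to 0.134). The 5 lower calls became 3 without P10 control replicate 1 (Atg13 and Zfyve1 lost) or without 2-month control replicate 2 or 3 (Atg13 and Ulk1 lost), at an adjusted p of 0.0515 to 0.103. Further single arrays ended some of these calls: P10 control replicate 1 for Atg12, replicate 2 for Map1lc3b and Wdr45 and replicate 4 for Map1lc3b, Ulk1 and Atg13, and 2-month control replicate 3 for Map1lc3b and Wdr45 and replicate 4 for Zfyve1 (adjusted p of 0.0505 to 0.108). In cKO nerves the age call of Tax1bp1 (0.44 ± 0.14, adjusted p = 0.0186) was lost without replicate 3 of either cKO group (adjusted p of 0.0574 to 0.082). That of Epg5 (0.34 ± 0.12, adjusted p = 0.0415) was lost without P10 cKO replicate 2, 3 or 4 or 2-month cKO replicate 2 or 4 (0.0558 to 0.148). That of Atg7 (0.33 ± 0.12, adjusted p = 0.0493) was lost without any 2-month cKO array, without P10 cKO replicate 1, 2 or 4, and without control replicate 2 or 3 of either age (0.0545 to 0.143). The Atg7 call was also lost after quantile normalization (0.101), without the intensity trend (0.0574) and with every transcript cluster tested (0.0517), and the Epg5 call after quantile normalization (0.0612). In control nerves the age call of Atg13 was lost with arrays centred on their median (0.0577) and after quantile normalization (0.0529).

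**Figure D4:**
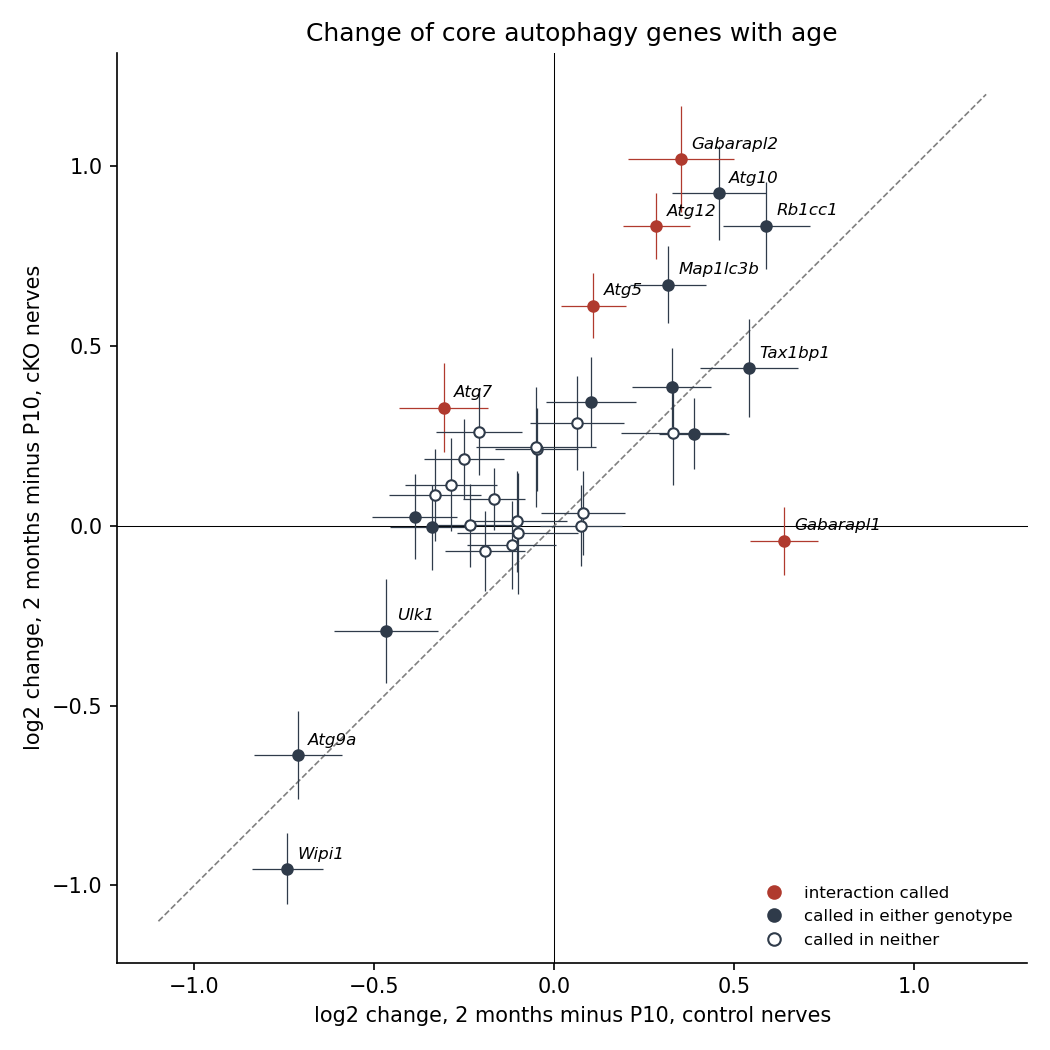
Log2 change from P10 to 2 months in control nerves (x axis) and cKO nerves (y axis) for the 33 measured core genes, with limma standard errors; the dashed line marks equal change. Red points are the 5 genes with a called interaction, of which Gabarapl1 lies below the line at 0.64 and -0.04, and Gabarapl2, Atg5, Atg7 and Atg12 above it.

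Other genes of the pathway were counted from 4 lists. Of 8 genes of the Beclin 1 and VPS34 complex, 1 was lower at P10 (Becn1, 12.5% called against 12.9% of all genes), and at 2 months 2 were higher and 2 lower (25% each way, against 18.5% and 15.5% of all genes). The 2 that were higher, Pik3c3 (0.40 ± 0.10, adjusted p = 0.00635) and Pik3r4 (0.45 ± 0.11, adjusted p = 0.00365), encode VPS34 and its partner VPS15, and Ambra1, a regulator of the complex, was lower with Becn1 (-0.28 ± 0.10, adjusted p = 0.0478). The Ambra1 groups overlapped at 2 months, at 9.91 to 10.13 in control and 9.50 to 9.99 in cKO nerves. At P10 Ambra1 differed by 0.19 ± 0.16 without a call. Atg14, Uvrag, Nrbf2 and Rubcn were called at neither age.

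Of 11 other autophagosome formation genes, 2 were higher at P10 (18.2% against 5.48% of all genes) and 6 at 2 months (54.5% against 18.5%), and none was lower. Smcr8, which acts in a complex with C9orf72, stood at 8.19 to 8.48 in P10 control and 9.04 to 9.25 in P10 cKO arrays (0.75 ± 0.11, adjusted p = 0.000217) and at 7.99 to 8.37 against 9.02 to 9.23 at 2 months (1.02 ± 0.10, adjusted p = 1.79e-06). C9orf72 itself differed by 0.04 ± 0.15 and 0.05 ± 0.11. Tbk1, a kinase that phosphorylates receptors such as p62, was higher by 0.32 ± 0.10 at P10 (adjusted p = 0.0447) and 0.38 ± 0.10 at 2 months (adjusted p = 0.00685). Rubcnl (0.81 ± 0.15), Wdr45b, a relative of Wipi1 (0.70 ± 0.12), and Ei24 (0.35 ± 0.09) were among those higher at 2 months.

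Of 15 other selective autophagy receptors, 1 was higher at P10 (6.67% against 5.48% of all genes), and at 2 months 3 were higher (20% against 18.5%) and 6 lower (40% against 15.5%). Tollip, a ubiquitin-binding receptor, was higher at both ages (0.52 ± 0.11, adjusted p = 0.00526, and 0.56 ± 0.10, adjusted p = 0.00034). At 2 months Phb2, a mitophagy receptor of the inner mitochondrial membrane, was higher by 0.68 ± 0.11 (adjusted p = 0.000174), while Rtn3, a receptor for tubules of the endoplasmic reticulum, was lower by 0.43 ± 0.10 (adjusted p = 0.00266). Stbd1, a receptor for glycogen, was lower by 0.67 ± 0.16 (adjusted p = 0.00328), with 6.2 to 6.8 on control and 5.45 to 5.91 on cKO arrays. Calcoco2, also among the lower calls, was dim, at 4.53 to 5.25 on control and 4.06 to 4.43 on cKO arrays. All values of Calcoco2 and the cKO values of Stbd1 lay below the array medians of 6.5 to 6.58.

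Of 13 other genes of autophagosome-lysosome fusion, none was called at P10, where 12.9% of all genes were. At 2 months 5 were higher and 0 lower (38.5% and 0%, against 18.5% and 15.5% of all genes). Of these 5, 4 encode subunits of the HOPS tethering complex or its core: Vps33a (0.74 ± 0.09, adjusted p = 8.08e-06), Vps16 (0.47 ± 0.09, adjusted p = 0.00081), Vps18 (0.42 ± 0.13, adjusted p = 0.0208) and Vps11 (0.39 ± 0.10, adjusted p = 0.00738). The fifth was Ykt6, a SNARE (0.32 ± 0.09, adjusted p = 0.0141). Vps39 and Vps41, the subunits that distinguish HOPS, had differences of 0.21 ± 0.10 and 0.25 ± 0.10 that did not pass (adjusted p = 0.118 and 0.0714). Vps33a was 8.97 to 9.23 in control and 9.75 to 9.84 in cKO nerves at 2 months, and its effect changed with age by 0.60 ± 0.15 (adjusted p = 0.0135).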

How the data were processed

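Total RNA of sciatic nerves was hybridised to Clariom S mouse arrays. The deposited values were log2 signals that the authors made by robust multi-array average (RMA), which corrects background, quantile-normalizes and summarises probes per transcript cluster. Of 22206 clusters, 19572 carried 1 gene symbol. The genome build of the array annotation is not given in the sources used here. For 55 genes on several clusters, the cluster with the highest mean was kept, giving 19505 genes. Groups were compared with limma 3.58.1 (R 4.3.3, empirical Bayes with an intensity trend), on the 8 arrays of each age for cKO against control and on all 16 arrays for age and interaction. P-values were two-sided and adjusted by Benjamini-Hochberg over all genes, with calls at an adjusted p under 0.05. The methods name another procedure, significance analysis of microarrays on the 5000 most variable clusters; limma on those clusters was an alternative.

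Every core gene was accounted for by role. Per-array values were given for Becn1 and for called core genes with the largest changes (up to 8 for each genotype comparison, 6 for the interaction, 4 for age in control nerves), and pathway lists were named by up to 4 genes of smallest p. Further list genes (Ykt6, Vps39, Vps41, C9orf72, Calcoco2, Tbk1 at 2 months and the uncalled Beclin 1 partners) were named after their values were seen. The core genes and lists were chosen with earlier results of these data known. Array signals give no read depth, and precision is limited by how many arrays there are. The fits were run on simulated data with independent noise, as a check that planted differences were recovered on average. That simulation held no array-wide effects such as the muscle spread at P10, so it does not show how the fits handle them. Arrays were treated as unpaired. Deviations of same-numbered arrays correlated at -0.152 to 0.186 (24 pairs), and those of arrays with other numbers at -0.212 to 0.238 (72 pairs). These ranges cannot exclude a weak pairing, and a fit with the replicate number as a block was an alternative. ATG8 protein sequences were not used here.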

Additional observations from a re-analysis of the deposited data

Results flagged for a closer look

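In 5 genes the cKO effect differed between P10 and 2 months by a test of the difference itself (2 months minus P10, limma): Atg5 (0.50, adjusted p = 0.013), Atg7 (0.64, adjusted p = 0.0203), Atg12 (0.55, adjusted p = 0.00797), Gabarapl1 (-0.68, adjusted p = 0.00194) and Gabarapl2 (0.67, adjusted p = 0.0409). In 7 of 132 groups of 4 arrays, 1 array lay far from the other 3, where chance flags about 5% of groups. Rb1cc1 was 8.41 in 2-month control replicate 2 and 7.93 to 7.98 in the others. Atg2a was 6.67 in P10 control replicate 3 (others 6.76 to 6.78) and 7.10 in P10 cKO replicate 3 (others 6.86 to 6.89). In P10 cKO replicate 3, Tax1bp1 was 8.85 (others 9.53 to 9.54). In P10 cKO replicate 4, Atg3 was 7.61 (others 8.18 to 8.29) and Nbr1 was 8.94 (others 8.45 to 8.50). Wipi2 was 8.39 in 2-month control replicate 4 (others 8.75 to 8.76).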

How the results depend on the processing

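No called core gene changed direction under any alternative run, and another scaling moved the median of all genes by at most 0.0326. On the 5000 most variable clusters only 8 core genes were tested, which gave 0 lower at P10, 2 higher at 2 months, 1 higher and 0 lower for the interaction, 3 higher and 2 lower with age in control nerves, and 4 higher with age in cKO nerves. Asking for a log2 change of at least 1 left 1 higher (Sqstm1) and 0 lower at P10, 1 higher and 0 lower at 2 months, 0 and 0 for the interaction and for age in control nerves, and 1 higher and 0 lower for age in cKO nerves. Array weights gave 7 higher for the interaction. The replicate number as a block left 1 lower core gene at P10, with Ulk2 at an adjusted p of 0.0572, and with the same block Atg2b (0.0792) and Atg101 (0.0525) at 2 months and the Gabarapl2 interaction (0.0554) lost their calls. Becn1 too was not called with the block (0.0781 for P10 nerves, 0.0556 for 2-month nerves). Leaving out each array in turn gave 3 to 4 higher and 1 to 2 lower at P10, 11 to 14 higher and 1 to 3 lower at 2 months (1 lower without control replicate 1 or cKO replicate 2), 2 to 6 higher and 1 lower for the interaction (2 higher without P10 cKO replicate 2), 5 to 9 higher and 3 to 7 lower with age in control nerves, and 8 to 11 higher and 2 lower with age in cKO nerves. Precision is limited by the 4 arrays per group.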
